A study of Rattus norvegicus with 6 samples.

Results

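Cd22, a lectin gene of B cells, was set beside 8 genes of costimulatory and checkpoint surface proteins: Icoslg, Cd274, Pdcd1lg2, Cd80, Cd86, Cd276, Cd40 and Cd47. The genes were found by symbol in a table of 16770 genes. Of the 9, 8 were in the table, and Pdcd1lg2, the gene of the second PD-1 ligand, was matched by neither symbol nor gene identifier and was not analysed here. Cd22 and Icoslg were selected on their measured strain difference, being much lower in the spontaneously hypertensive rat (SHR) than in its normotensive control, the Wistar Kyoto rat (WKY). Their strain differences are therefore given as a description, with no test. The other members were added as relatives in the family or pathway, to ask whether the loss was shared.

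The libraries came from cells grown out of pieces of the proximal aorta of 3-month-old rats, laid with the inner surface down, grown in a medium for endothelial cells (with serum and a growth supplement) and labelled endothelial. There were 3 libraries of each strain, no treatment is labelled, and total counts were 18462051 to 19947278 per library. Batch 1 in the labels holds replicate 1 and replicate 2 from both strains, batch 2 holds replicate 3, and what a batch is goes unsaid. No label ties each library to its own animal, so the p-values measure the spread between libraries, which may be technical.

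The labelled cell type was checked against its markers. Cdh5, the gene of the endothelial cadherin, had at most 2 counts in any library, Tie1 at most 1, and Pecam1 2 to 7 counts in WKY and 9 to 42 in SHR. These defining endothelial markers were near 0, so the cells are called aortic cultures here. Of 10 endothelial genes measured, 4 were tested and 0 were called between strains, and the list summed to 25.6 to 99 CPM (counts scaled to library size) in WKY and 48.5 to 77.5 CPM in SHR, most of it Flt1 and Egfl7. Tek, the gene of an angiopoietin receptor, did not overlap between strains, with 0.98 ± 0.76 CPM for WKY against 7.47 ± 2.44 CPM in SHR (SD over 3 libraries each; log2 fold change 3.00, SE 0.63, edgeR adjusted p = 0.182), and DESeq2 called it (adjusted p = 0.000383). In 6 of 8 fibroblast markers the strains did not overlap, all 6 with higher levels in SHR, and 1 (Tcf21) was called by edgeR and 5 by DESeq2, all higher. Tcf21 had 0, 1 and 2 counts in WKY and 23, 23 and 461 in SHR, so it passed the filter on low counts through the SHR libraries. The same holds for Dpt (2, 14 and 1 counts against 491, 305 and 819). Over all genes tested, 9.81% had no overlap, 0.254% were called by edgeR and 5.14% by DESeq2. The fibroblast sums ran from 6059 to 16010.1 CPM in WKY and from 10631 to 14381 CPM in SHR, most of it Col1a1 and Col3a1. The sum of 8 mesothelial and epithelial markers was 174 to 679 CPM in WKY and 397 to 1267 CPM in SHR, with 0 called by either tool and overlap in each marker. All 7 tested smooth muscle markers had negative log2 fold changes (median -0.73), with 0 called by edgeR, 2 at an unadjusted p below 0.05 (13.3% of all genes tested) and 1 called by DESeq2. That gene was Myocd, a smooth muscle coactivator (log2 fold change -1.65, SE 0.36; edgeR adjusted p = 0.2; DESeq2 adjusted p = 0.00244). In batch 1, Acta2 and Tagln were higher in SHR (log2 differences 0.71 and 0.14), and the other tested smooth muscle markers were lower. In batch 2, Des was higher in SHR (log2 difference 4.77), and the other tested smooth muscle markers were lower.

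The B7 family members are surface proteins with immunoglobulin domains that meet receptors on T cells. CD80 and CD86 bind CD28 and CTLA-4, the ICOS ligand encoded by Icoslg binds ICOS, and the PD-1 ligands encoded by Cd274 and Pdcd1lg2 restrain T cells through PD-1. CD40 is a receptor of the tumour necrosis factor family that answers CD40 ligand on helper T cells, and CD47 binds SIRPα on phagocytes and signals that a cell should not be eaten. CD22 binds sialic acids and dampens B cell receptor signalling through phosphatases. Endothelial cells are known to display ICOS ligand and PD-L1, while CD22 is best known from B cells.

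Promoters are printed for Cd22 and Icoslg, the pair that was lower in SHR, and for Cd274, the tested member with the opposite sign. They run from 250 bases before to 50 after the start that RefSeq lists in the GRCr8 assembly, which is the sequence of another strain and a later build than the Rnor_6.0 named in the submitters' processing notes. Sequence of SHR and WKY was not used here. Capitals mark matches, on either strand, to the GC box (GGGCGG), the core of the PU.1 site (GAGGAA) and the cores ACGTG and GCGTG of hypoxia response elements. The Cd22 window is chr1:95259681-95259980 on the minus strand, the Icoslg window chr20:10610316-10610615 on the minus strand, and the Cd274 window chr1:236529982-236530281 on the plus strand.
Cd22: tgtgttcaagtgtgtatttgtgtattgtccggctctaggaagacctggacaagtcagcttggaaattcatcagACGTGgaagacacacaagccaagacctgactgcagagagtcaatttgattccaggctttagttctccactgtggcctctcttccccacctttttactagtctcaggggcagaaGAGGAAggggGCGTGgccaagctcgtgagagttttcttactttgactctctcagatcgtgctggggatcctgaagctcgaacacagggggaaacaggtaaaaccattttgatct
Icoslg: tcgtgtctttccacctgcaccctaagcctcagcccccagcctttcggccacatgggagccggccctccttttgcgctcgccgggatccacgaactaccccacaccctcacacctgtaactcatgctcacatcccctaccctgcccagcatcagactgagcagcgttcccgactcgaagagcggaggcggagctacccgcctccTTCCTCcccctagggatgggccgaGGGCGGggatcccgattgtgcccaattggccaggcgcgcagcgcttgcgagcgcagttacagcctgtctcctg
Cd274: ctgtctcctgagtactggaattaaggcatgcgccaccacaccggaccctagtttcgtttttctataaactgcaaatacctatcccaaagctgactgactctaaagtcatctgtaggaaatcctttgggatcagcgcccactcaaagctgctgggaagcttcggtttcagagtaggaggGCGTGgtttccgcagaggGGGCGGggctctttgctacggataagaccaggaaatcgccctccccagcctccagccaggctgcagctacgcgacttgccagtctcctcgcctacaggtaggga

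The windows of Cd22 and Icoslg had different base compositions. That of Cd22 held 6 CpG dinucleotides and 48.7% G and C, and that of Icoslg 21 and 64.7%, against medians of 7 and 51.7% over 33465 promoter windows of the same length. Cd274 lay between them with 13 and 54.7%. The core of the PU.1 site, found in 27.6% of all windows, was the one searched motif present once in both Cd22 and Icoslg, and Cd274 held no match to it. The GC box, present in 33.1% of windows, occurred once in Icoslg, once in Cd274 and not in Cd22. Cd22 held ACGTG and GCGTG once each (19.3% and 29.7% of windows), and Cd274 held GCGTG once. No match in these 3 windows was found to the octamer ATTTGCAT (1.78% of windows), the cyclic AMP response element TGACGTCA (1.83%), the gamma-activated site TTCNNNGAA (8.87%) or the NF-kB consensus (7.52%). The listed starts of Cd22 and Cd274 lie inside the span that RefSeq gives the gene, so these windows are not at its outer end.

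Levels in CPM refer to the scaled library. They are not divided by transcript length and are compared between libraries of a gene, not between genes. Cd22 (gene identifier 308501) stood at 23.2, 26.2 and 33.8 CPM in WKY replicates 1, 2 and 3 and at 0.787, 0.663 and 3.43 CPM in the SHR replicates. Each SHR library lay far below each WKY library. Mean levels were 27.7 ± 5.49 CPM for WKY and 1.63 ± 1.56 CPM for SHR (SD, n = 3 each), a log2 fold change of -4.41 (SE 0.43), or 21.2-fold lower. The 13, 15 and 66 counts left in the SHR libraries were above 3 counts, the limit that a count of 0 allows, so Cd22 was low but not absent in SHR. In the bulk RNA of a culture, fewer cells with a transcript and less transcript per cell cannot be told apart. Of 8 fibroblast markers 7 had the opposite direction in these libraries, as did 2 of the 4 tested endothelial genes (Tek and Vwf). The 7 tested smooth muscle markers had the same direction in the fit, though Acta2 and Tagln were higher in SHR in batch 1. In batch 2, Des was higher in SHR (87.7 against 3.11 CPM; fitted log2 fold change -1.55, SE 2.14). Cnn1, untested, was also higher in SHR in batch 2 (17.3 against 7.65 CPM). The part of these genes in the differences of Cd22 and Icoslg was not tested.

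Icoslg (gene identifier 499415) stood at 25.4, 17.3 and 17.6 CPM for WKY and at 1.78, 2.86 and 2.24 CPM in SHR. Again the strains did not overlap, and the 34 to 56 counts per SHR library were above the limit for a count of 0. Its means were 20.1 ± 4.59 and 2.29 ± 0.54 CPM (SD, n = 3 each), a log2 fold change of -3.12 (SE 0.28), or 8.71-fold lower. Among all 12614 genes tested, 0.404% had a log2 fold change as low as that of Icoslg or lower, and 0.103% as low as that of Cd22 or lower.

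**Figure D1:**
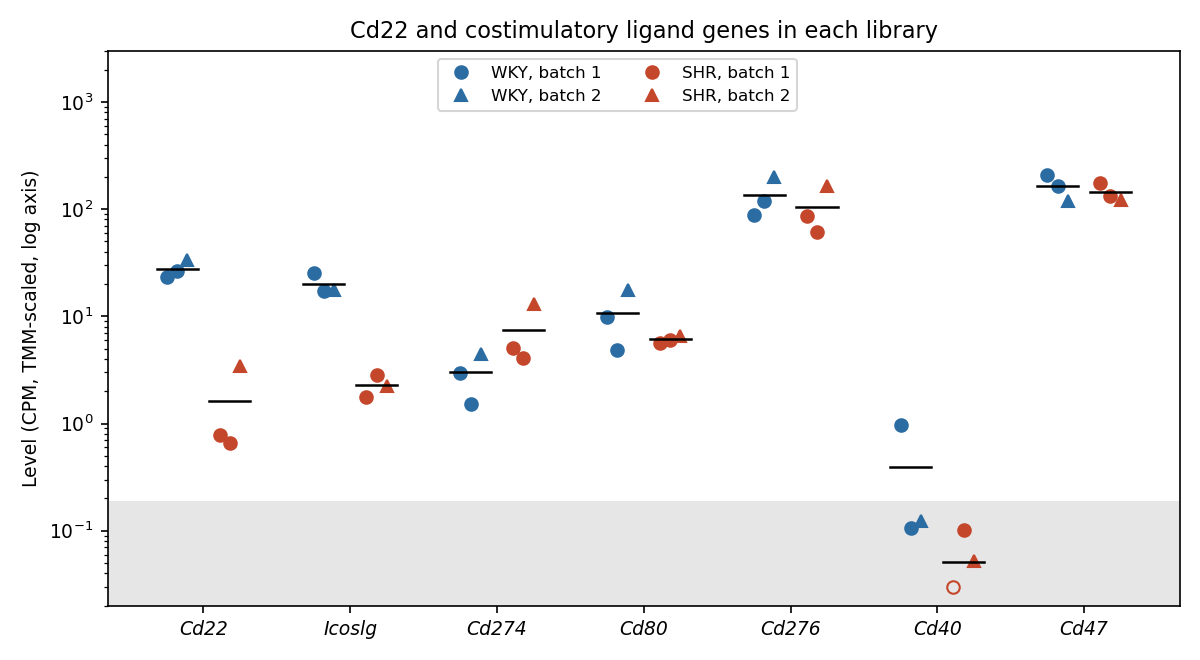
Level of each gene in each library (CPM on a log axis), with WKY in blue, SHR in red, circles for batch 1 and triangles for batch 2. Black lines are the means of 3 libraries, the grey band lies under the highest limit that a count of 0 allows in a library (0.187 CPM), and the open circle is a library at 0. Cd22 and Icoslg separate the strains, while Cd276 and Cd47 do not.

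Of the other members with enough counts for a test, none was called between the strains by the edgeR quasi-likelihood test at an adjusted p below 0.05. Called genes made up 0.254% of the 12614 tested, and genes called lower in SHR 0.151%. Among the 6 tested members, 2 were called, both lower in SHR and both the genes picked for it, so nothing is read from that count. The same pair had no overlap between strains, as did 9.81% of all genes tested. With the replicate number as a block, 0 of the 6 were called, with 6 genes called in the whole table against 32 without the block.

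Cd80, the B7-1 gene whose product binds CD28 and CTLA-4, had 9.9, 4.81 and 17.6 CPM for WKY against 5.67, 6.07 and 6.55 CPM in SHR. The SHR libraries lay close together inside the range of the WKY libraries. Its log2 fold change was -0.69 (SE 0.38; edgeR adjusted p = 0.495), with a 95% confidence interval of -1.63 to 0.24. The wide spread was in WKY (10.8 ± 6.44 CPM against 6.1 ± 0.44 in SHR; SD over 3 libraries each).

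Cd276, the B7-H3 gene, a checkpoint ligand that many non-immune cells display, had 87.2, 120.2 and 198.8 CPM for WKY against 86.4, 61.5 and 163 CPM in SHR. The strains overlapped, and the batch 2 library was the highest of each. The log2 fold change was -0.42 (SE 0.20; edgeR adjusted p = 0.448), with an interval of -0.92 to 0.08. Cd47 had 209.3, 164.9 and 117.8 CPM for WKY against 174.8, 132.9 and 121.3 CPM in SHR, overlapping throughout. Its log2 fold change was -0.18 (SE 0.18; edgeR adjusted p = 0.717), with an interval of -0.63 to 0.28.

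Cd274, the PD-L1 gene, had the opposite sign. Its libraries held 2.98, 1.53 and 4.48 CPM for WKY against 5.04, 4.08 and 13.05 CPM in SHR. The strains touched only where SHR replicate 2 lay under WKY replicate 3, which belongs to the other batch. In each batch every SHR library was above every WKY library, with a log2 difference of 1.04 in batch 1 and 1.52 between the single libraries of batch 2. The fitted log2 fold change was 1.19 (SE 0.34, interval 0.35 to 2.03). It did not pass the edgeR test (unadjusted p = 0.0138, adjusted p = 0.265), while the DESeq2 Wald test called it (log2 fold change 1.21, SE 0.40, adjusted p = 0.0466). DESeq2 called 5.14% of the genes it tested. In GRCr8 the span of Cd274 overlaps that of Plgrkt, a plasminogen receptor gene, and the sources used here do not say how overlapping genes were counted. Plgrkt had a log2 fold change of -0.44 (SE 0.14; edgeR adjusted p = 0.298), the opposite sign.

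Cd40 and Cd86 were too low to test. Cd40 had 19 counts in WKY replicate 1 and 0 to 2 counts in each of the other 5 libraries. Cd86, the B7-2 gene, had 0 counts in all 6 libraries, which allows up to 0.151 to 0.187 CPM per library, for counting error only.

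Among the 6 tested members, the loss was seen in the 2 that were picked for it, and Cd40 and Cd86 were too low to judge. The lower ends of the intervals of Cd80, Cd276, Cd47 and Cd274 (-1.63, -0.92, -0.63 and 0.35) were all above the upper end of that of Icoslg (-2.43) and of Cd22 (-3.32). That gap is a description, because Cd22 and Icoslg were picked for their size in the same comparison, and no test of the difference between members is given.

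Ligands beyond the 9 genes gave 0 called genes by edgeR in each of 3 lists. Of all genes tested 0.254% were called, so nothing is read from these counts. In the rest of the B7 family 3 of 10 could be tested, with 0 at an unadjusted p below 0.05 and 0 called by DESeq2 (13.3% and 5.14% of all genes). These were Btn2a2, Ildr2 and Vsir, the last encoding the checkpoint ligand VISTA, with log2 fold changes of -0.44, 0.53 and 1.18 (SE 0.31, 0.34 and 0.92) and a median of 0.53. Ligands of the tumour necrosis factor superfamily had a median of 0.88 over 5 tested of 12 listed, against -0.02 over all genes tested. Tnfsf13b, the gene of the B cell survival factor BAFF, had 2, 12 and 3 counts in WKY and 41, 26 and 126 counts in SHR. All SHR libraries were higher (log2 fold change 3.09, SE 0.90; edgeR unadjusted p = 0.0149, adjusted p = 0.272), and DESeq2 called it (adjusted p = 0.0272). With such low WKY counts, Tnfsf13b passed the filter on low counts through the SHR libraries. Tnfsf13, the gene of the related factor APRIL, had 5.7 ± 0.48 CPM for WKY against 10.7 ± 4.36 CPM in SHR (SD over 3 libraries each; log2 fold change 0.88, SE 0.35, edgeR adjusted p = 0.372). These 2 were the genes of the list with an unadjusted p below 0.05, against 13.3% of all genes tested.

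Among 15 other ligands of checkpoint receptors on T cells and phagocytes, 11 were tested. Their median log2 fold change was -0.32, and 10 were negative and 1 positive. Of them 0 had an unadjusted p below 0.05 and 0 were called by DESeq2, against 13.3% and 5.14% of all genes. Cd200, whose product restrains myeloid cells, came nearest to the size of Icoslg, with a log2 fold change of -2.60 (SE 1.03, interval -5.22 to 0.02; edgeR adjusted p = 0.379). Its libraries ran from 11.1 to 81.7 CPM in WKY and from 3.47 to 40.1 CPM in SHR and overlapped, but only across batches. In each batch every SHR library was below every WKY library. The log2 difference was -2.91 in batch 1 and -0.70 between the single libraries of batch 2. The nectin genes Nectin1 and Nectin3 had log2 fold changes of -0.54 (SE 0.22) and -0.32 (SE 0.16), and Lgals9, the gene of galectin-9, -0.39 (SE 0.27), with edgeR adjusted p between 0.389 and 0.582.

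**Figure D2:**
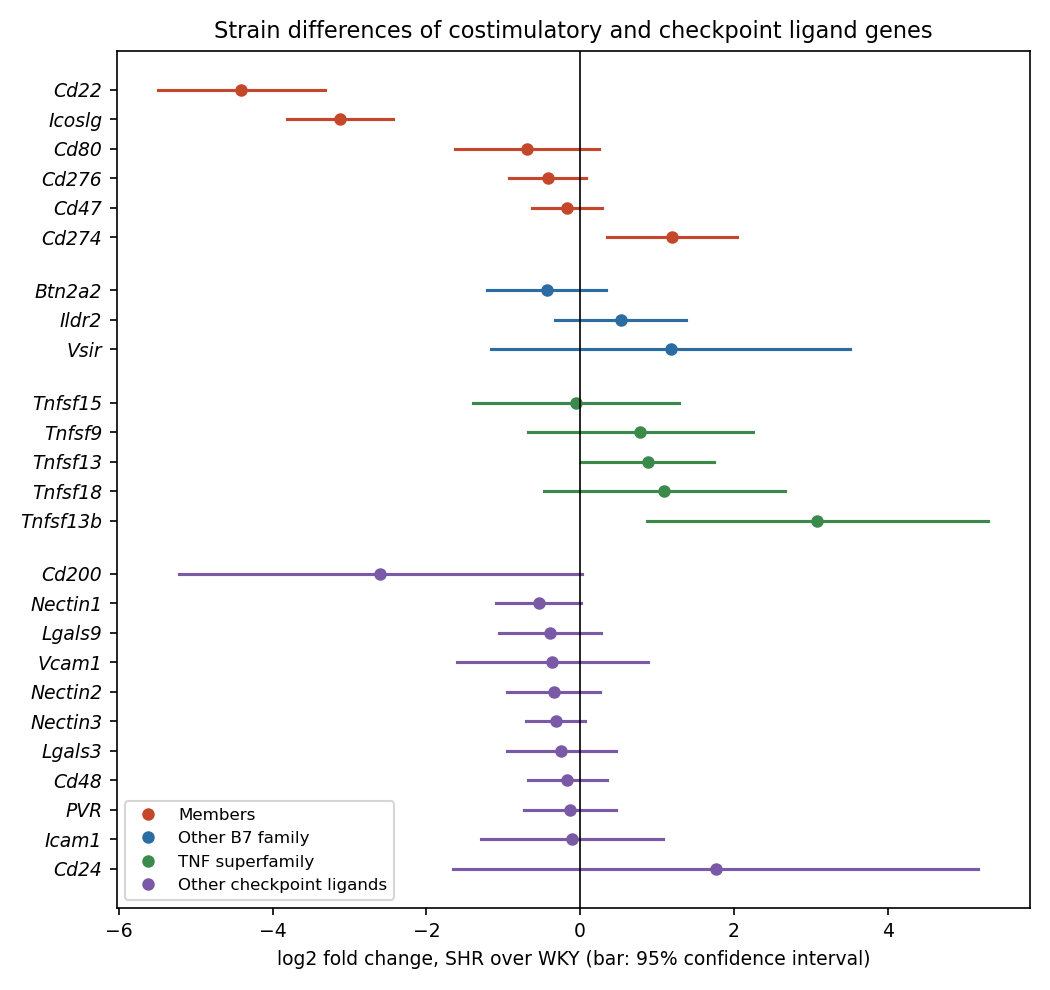
Log2 fold change of SHR over WKY (points) with its 95% confidence interval (bars) for the tested members and 3 lists of related ligands, coloured by list. Cd22 (-4.41) and Icoslg (-3.12) lie to the left of the other members, Cd200 (-2.60) has an interval that reaches 0.02, and Cd274 (1.19) lies to the right.

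None of the receptors and partners of the members was called by edgeR, against 0.254% of all genes tested. Icos, the receptor of the ICOS ligand, had 5 to 15 counts per library, and Cd28 had 6 to 122. All 7 of this list found in the table were tested, and an unadjusted p below 0.05 was reached by 2 with a positive and 1 with a negative change, against 13.3% of all genes. Thbs1, the gene of thrombospondin-1, a secreted CD47 ligand, had 692 ± 521 CPM for WKY against 179 ± 79.3 CPM in SHR (SD over 3 libraries each; log2 fold change -1.97, SE 0.74, edgeR adjusted p = 0.366). Sirpa, the gene of the CD47 receptor, had 38.8 ± 5.04 and 67.3 ± 39.1 CPM (log2 fold change 0.65, SE 0.25, edgeR adjusted p = 0.37). Itgb3, the integrin β3 gene, had log2 fold change 2.50 (SE 0.78; edgeR adjusted p = 0.299) and was the one gene of the list called by DESeq2 (adjusted p = 0.0197).

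The signalling adaptors of CD40 were all tested. Of the 10, 0 were called by edgeR or DESeq2, 0 had an unadjusted p below 0.05, and their log2 fold changes lay between -0.44 and 0.47. Among 12 regulators of Cd274, log2 fold changes lay between -0.75 and 0.57, 0 were called by either tool, and 1 had an unadjusted p below 0.05. That gene was Cmtm4, whose product stabilises PD-L1, with 11.5 ± 2.42 CPM for WKY against 6.82 ± 1.78 CPM in SHR (SD over 3 libraries each; log2 fold change -0.75, SE 0.22, edgeR adjusted p = 0.277). Cmtm6, its relative with the same role, had a log2 fold change of 0.17 (SE 0.12), and the interferon response gene Irf1 had 0.09 (SE 0.17).

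Partners of CD22 and enzymes that make or trim its sialic acid ligands were examined as a list of 20, of which 17 were tested. None was called by edgeR, against 0.254% of all genes tested. At an unadjusted p below 0.05, 5 were lower and 0 higher, against 13.3% of all genes in either direction. DESeq2 called 4 lower, against 5.14% of all genes, and the median log2 fold change was -0.23, against -0.02 over all genes. Neu1, the gene of the lysosomal sialidase that removes sialic acids, had 92.2, 49.9 and 210.4 CPM for WKY against 23.1, 16.7 and 35.3 CPM in SHR. Every SHR library was lower than every WKY library (log2 fold change -2.08, SE 0.32; edgeR adjusted p = 0.103; DESeq2 adjusted p = 2.2e-07). Lyn, the kinase that phosphorylates CD22, had 8.15 ± 1.7 and 4.13 ± 1.4 CPM (log2 fold change -1.02, SE 0.25, edgeR adjusted p = 0.231). Plcg2, a phospholipase of the B cell receptor pathway, had 3.52 ± 2.08 and 0.999 ± 0.65 CPM (SD over 3 libraries each), with no overlap and an edgeR adjusted p of 0.24. Shc1, an adaptor that most cells express, differed less, with a log2 fold change of -0.46 (SE 0.15; edgeR adjusted p = 0.296). St6gal1, the sialyltransferase gene whose product makes the CD22 ligand, had 49.9 ± 26.7 and 41 ± 5.95 CPM and an edgeR adjusted p of 0.84. Syk and Vav1, which act in the same pathway in B cells, had at most 7 and 0 counts in a library.

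Other sialic acid-binding lectins were sparse. Siglec10 was the 1 of 8 that could be tested, with 22, 15 and 54 counts in WKY and 2, 4 and 43 counts in SHR (log2 fold change -1.72, SE 0.60, edgeR adjusted p = 0.335). It was lower in SHR in both batches, and within each strain the batch 2 library was the highest. Mag, the myelin lectin gene, had 0 counts in 4 libraries, 2 in SHR replicate 2 and 14 in SHR replicate 3.

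Defining markers of B cells and of leukocytes at large were near 0, while some myeloid markers were not. Cd79a, a B cell receptor component gene, had at most 2 counts in a library, and Ptprc, the pan-leukocyte gene of CD45, had 0 in all 6 libraries. The B cell list, 7 of whose 10 genes were in the table, summed to 0.497 to 1.27 CPM in WKY and 0.714 to 1.61 CPM in SHR, and the part of B cells in the Cd22 levels was not tested. In the leukocyte and myeloid list, 4 of 15 genes were at 0 in every library, and the sum was 36.1 to 68.9 CPM in WKY and 32.8 to 71 CPM in SHR, most of it Cd14 (280 to 756 counts per library) and Cd68 (56 to 539 counts). Itgax, an integrin gene of myeloid cells, had 4 to 200 counts. Ciita, the master regulator of class II histocompatibility genes, belonged to this list and had 37, 24 and 179 counts in WKY and 3, 10 and 27 in SHR (log2 fold change -2.51, SE 0.51; edgeR adjusted p = 0.174; DESeq2 adjusted p = 0.00139).

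Because the batches were not used to choose the members, the difference between batches could be tested. Of all genes tested, 43.5% differed between batches by the edgeR quasi-likelihood test, and 3 of the 6 members did, a share near that background. All 3 were higher in batch 2, as were 21% of all genes tested. Cd276 was 2.06-fold higher in batch 2 (log2 1.04, SE 0.21, adjusted p = 0.0116), and Cd274 was also higher (log2 1.26, SE 0.34, adjusted p = 0.0304). Cd22 was 2.44-fold higher (log2 1.29, SE 0.41, adjusted p = 0.0497), a call that was lost with upper quartile scaling (0.0591) and without the filter on low counts (0.0552). Leaving out 1 library lost the Cd274 call for every library but WKY replicate 1 (adjusted p 0.058 to 0.204), the Cd22 call for every library but WKY replicate 3 (0.0582 to 0.164) and the Cd276 call for SHR replicate 3 (0.0665). Icoslg had a batch difference of -0.17 (SE 0.28, adjusted p = 0.641), Cd80 0.75 (SE 0.39, adjusted p = 0.171) and Cd47 -0.50 (SE 0.20, adjusted p = 0.0899). Smooth muscle markers moved with the batch, 5 of 7 tested being called higher in batch 2, with sums of 749 to 903 CPM in the 4 batch 1 libraries and 8144 (WKY) and 1860.1 (SHR) CPM in batch 2. Their part in the batch differences was not tested. Batch 2 held 1 library of each strain, and without SHR replicate 3 none of the 6 members was called. The batch difference of Cd22 was 0.45 without SHR replicate 3 and 2.22 without WKY replicate 3.

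The size of the Cd22 loss was set side by side in each batch. On the log2 scale of CPM with a prior count of 2, the difference was -4.90 in batch 1 and -3.26 in batch 2, whose SHR library held 66 counts against 15 and 13. The strain by batch term was 1.78 (SE 0.36, edgeR unadjusted p = 0.00401, adjusted p = 0.217), and 0 of the 6 members and 0 of 12614 genes passed, with 1 member and 1597 genes (12.7%) at an unadjusted p below 0.05. For Icoslg the log2 differences were -3.15 and -2.92, with a term of 0.22 (SE 0.59, adjusted p = 0.909).

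No setting of the fit turned the direction of a member. In 14 alternatives, the log2 difference of Cd22 lay between -5.08 and -2.42 and that of Icoslg between -3.31 and -1.76, the values nearest 0 being those of the authors' deposited log2 values. Leaving out either batch 2 library gave -5.08 for Cd22, against -4.41 with all 6. Cd22 was called in 9 of the 14 and Icoslg in 6, a description because both were picked for this comparison. Cd274 stayed positive (0.64 to 1.55) and was called in 1 of the 14, by DESeq2. Cd80, Cd276 and Cd47 stayed negative and were called in none.

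**Figure D3:**
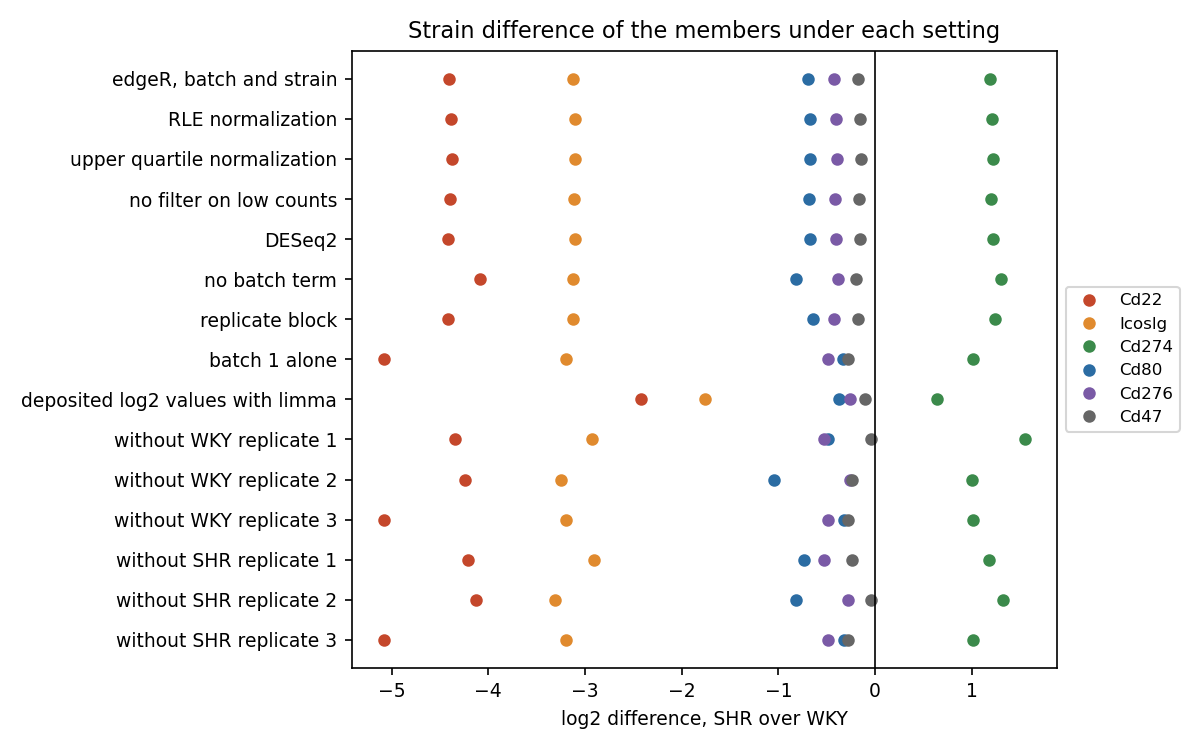
Log2 difference of SHR over WKY of the 6 tested members (points, coloured by gene) under the fit with batch and strain and each of 14 alternatives. Cd22 and Icoslg lie at -1.76 or lower in every row, Cd274 lies right of 0, and Cd80, Cd276 and Cd47 lie between -1.05 and 0.

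Neighbours of the members in the gene order were compared with them. The count table holds 1 of the 6 genes nearest to Cd22 on chromosome 1, and of the nearest 3 measured genes on each side 2 had enough counts for a test. Usf2, the gene of a ubiquitous transcription factor, had 36, 40.5 and 97.6 CPM for WKY against 39.3, 40.9 and 103 CPM in SHR, so the strains matched closely within each batch (log2 fold change 0.07, SE 0.12, edgeR adjusted p = 0.825). LOC100361079, a ribosomal protein copy named Rpl36l2 in RefSeq, had one of 0.22 (SE 0.15, edgeR adjusted p = 0.58). Lsr, a lipoprotein receptor gene of epithelia, was untested, with 2.04 and 23 CPM in SHR replicates 2 and 3 and at most 0.0622 CPM elsewhere.

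On chromosome 20, 5 of the 6 nearest measured neighbours of Icoslg were tested, and their log2 fold changes lay between -0.20 (Trappc10) and 0.44 (Cfap410), with edgeR adjusted p of 0.375 or more. Pfkl, the liver phosphofructokinase gene, had -0.03 (SE 0.27) and Gatd3a 0.26 (SE 0.13). Aire, the thymic regulator gene, had 1 count in 1 library. Around Cd274, Ric1 and Ermp1 had -0.13 (SE 0.13) and 0.12 (SE 0.16). None of the tested neighbours was called by edgeR, against 0.254% of all genes tested.

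**Figure D4:**
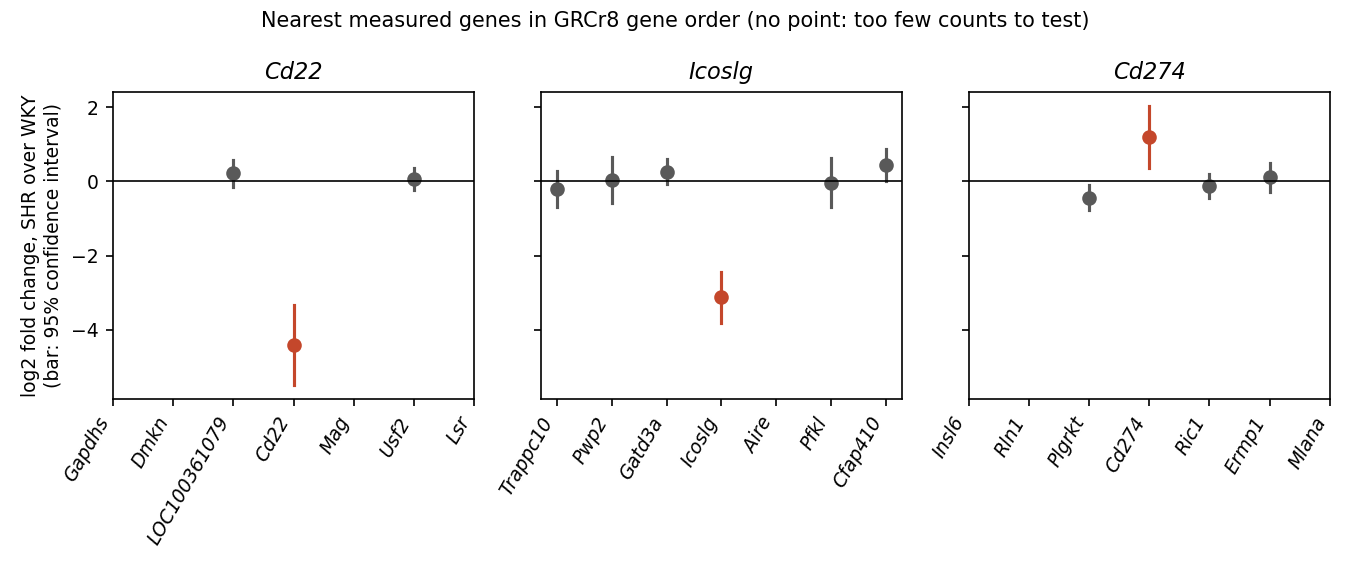
Log2 fold change of SHR over WKY with its 95% confidence interval for Cd22, Icoslg and Cd274 (red) and the nearest 3 measured genes on each side in the GRCr8 gene order (grey), with untested genes named without a point. Tested neighbours of Cd22 and Icoslg lie between -0.20 and 0.44.

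Genes whose pattern was most like that of each of the pair were ranked by Pearson correlation of log2 CPM over the 6 libraries with the batch means removed, among 9993 genes of at least 5 CPM on average. This measure ignores the size of a change, and the points share strain and batch, so it is a description. Cd22 and Icoslg correlated with each other at 0.97. For Cd22 the 5 nearest were Abcg3l3, Car9, Zfp772, B3gat3 and Smurf2 (0.994 to 0.999), of which Car9, the gene of a hypoxia-inducible carbonic anhydrase, had a log2 fold change of -6.00 (SE 0.45) and the other 4 lay between -0.55 and -0.13. For Icoslg they were Dtna, Hmgb2, Atp6v1a, Tnrc6b and Xpr1 (0.995 to 0.998). Dtna, the α-dystrobrevin gene, had a log2 fold change of -2.47 (SE 0.19) and Hmgb2 one of -2.53 (SE 0.22), and the other 3 lay between -0.49 and -0.36. No test is given for these genes, which were ranked on a measure that includes the strain difference.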

How the data were processed

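RNA of 6 libraries (3 WKY, 3 SHR) was sequenced with paired-end reads of 100 bp on a DNBSEQ instrument, per the labels' protocols. The authors deposited estimated counts per gene, not normalized, of which 8.96% were not whole (tolerance 0.001), and a table of log2 values. The tools RSEM 1.2.28, Bowtie2 2.4.4 and DESeq2 1.42.1 and the build Rnor_6.0 come from the submitters' processing notes, which give no roles. The sources used here do not say how the deposited log2 values were made, and in them the batch means are equal in every gene (largest difference 7.5e-09). Nor do they say whether counting used strand or how it split overlapping or similar genes.

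Estimated counts were rounded to whole numbers. Totals were 18462051 to 19947278 per library, and no 2 libraries agreed within sampling noise. Genes were kept by filterByExpr of edgeR 4.0.16 (12614 of 16193 with a count), scaled by TMM and compared with the quasi-likelihood test (robust, R 4.3.3) in a model of batch plus strain, leaving 3 residual degrees of freedom, or 2 with the strain by batch term. P-values were two-sided and adjusted by Benjamini-Hochberg over all genes tested, with a threshold of 0.05. Fold changes are SHR over WKY. Each SE is the size of the log2 fold change over the root of its F statistic, and intervals are 95%. Code was tested on simulated data. Alternatives were RLE and upper quartile scaling, no filter, DESeq2 1.42.0, no batch term, the replicate number as a block, batch 1 alone, each library left out, and limma 3.58.1 on the deposited log2 values. Same-numbered libraries of the strains deviated together from their group means (correlations 0.30, 0.40 and 0.66 over genes), which is partly the shared batch. Unlike numbers in batch 1 did so too (0.49 for WKY replicate 1 with SHR replicate 2, 0.48 for WKY replicate 2 with SHR replicate 1). The replicate numbers were taken to pair the libraries only in the fit with the block, and the main fit did not use them.

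The members and the 14 lists were chosen with earlier results of these data known. Symbols matched 143 of 168 listed genes and gene identifiers 2 more, leaving 23 unmatched. Genes named are the members, of each list up to 4 measured genes with the smallest p in the strain comparison, the defining markers, the nearest neighbours in the GRCr8 gene order and the 5 genes most like Cd22 or Icoslg. Others (for example Syk, Vav1, St6gal1, Mag and Irf1) were named after their values were seen. Neighbours were limited to genes in the count table, a choice made after seeing it. RefSeq's gene table matched 94.1% of gene identifiers. Promoter windows are RefSeq's (GRCr8), found for 8 of the 9 members, and the outermost listed start was used. Floors cover counting error only.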

Additional observations from a re-analysis of the deposited data

How the results depend on the processing

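All log2 fold changes of the 6 tested members had 1 direction in the 14 alternatives. Of these members, 2 were called between strains in the main comparison, against 0.254% of all genes tested. Both (Cd22 and Icoslg) were picked for that difference, so nothing is read from the count or its changes. The count was 0 without the batch term and with the replicate block, 1 in batch 1 alone and 0 to 2 with 1 library left out. It was 0 without WKY replicate 1, SHR replicate 1 or SHR replicate 2. Over all genes 32 were called, against 719 by DESeq2, 2 without the batch term, 6 with the replicate block and 0 to 65 with 1 library left out (SHR replicate 1 or SHR replicate 2 left out gave 0, and for WKY replicate 1, WKY replicate 2 and WKY replicate 3 the counts were 4, 65 and 20). Each fit with a library left out has fewer residual degrees of freedom. Leaving out either batch 2 library moved the log2 difference of Cd22 from -4.41 to -5.08, since the comparison then rests on batch 1. In batch 2 against batch 1, 3 members were called and 0 to 3 under the alternatives, with 0 to 2 when 1 library was left out. It was 1 without WKY replicate 2, SHR replicate 1 or SHR replicate 2 and 0 without SHR replicate 3. The strain by batch term was called in 0 members under each of its 4 alternatives, with 1 at an unadjusted p below 0.05 in each. The correlations behind the replicate block do not single out each library's own number. WKY replicate 1 correlated more with SHR replicate 2 (0.49) than with SHR replicate 1 (0.30).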
